A study of Mus musculus with 6 samples.

Results

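The T cell receptor alpha variable segments of the mouse, whose gene names begin with Trav, were followed across 6 bulk transcriptomes of regulatory T (Treg) cells sorted from tumours. The members were all table entries named in this way, 128 of the 55450 genes listed. Treg cells are CD4 T cells that restrain immune responses, and the tumour was MC38, a transplantable mouse colon carcinoma grown to roughly 8 mm across. All mice were C57BL/6, and the Treg cells were Tim-3 sufficient in 3 libraries and Tim-3 deficient in the other 3, Tim-3 being an inhibitory receptor encoded by Havcr2. The labels place the deficiency in Treg cells but name no Cre driver, no allele, no age and no sex, and leave it unsaid if separate animals were used within a group. A p-value here measures only the spread among these 6 libraries, some of which may be technical. Each library is named by the mark in its column name, as sufficient A1, sufficient B1, sufficient dated, deficient C1, deficient D and deficient dated, where "dated" means that the name carries a calendar date.

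An alpha chain gene is assembled in the thymus when the recombinase cuts out the DNA between a Trav segment and a Traj joining segment. The joined exon is spliced to the constant region Trac, and the alpha chain pairs with a beta chain built from Trbv segments. A rearranged cell transcribes mainly its chosen segment, so in a population of T cells the Trav transcripts describe which segments the cells use, weighted by how much alpha chain RNA each cell holds. Fewer cells using a segment and less RNA per cell cannot be told apart in bulk samples.

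In GENCODE mouse release 21 the 128 segments lie on the plus strand of chromosome 14 (GRCm38) and span 1549.75 kb, and the last of them ends 242.843 kb before the start of Trac. They comprise 108 variable genes and 20 pseudogenes of 23 numbered subfamilies. Part of the locus of this strain's reference is repeated, and the names of repeated copies carry the letter d (39 segments) or n (34 segments), against 55 without a letter. Copies are often nearly the same sequence. Over the last exon, which codes for nearly all of the variable domain, 71 segments lay within 5 edits of another segment and 38 were identical to another. In 15 pairs both segments had equal values in all 6 libraries, and all 15 had an identical annotated transcript, so the deposited values cannot say which copy of such a pair was transcribed. The 106 tested segments therefore held 91 distinct patterns of values.

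The sequences below belong to the segments on which the comparison of the groups turned, taken from the GENCODE transcripts, 5′ to 3′ on the plus strand. Trav14-1 and its closest relative Trav14d-1 are shown over the first 300 coding bases of the variable exon, at chr14:53554247-53554546 and chr14:52855855-52856154, with the 13 bases at which they differ in capitals. These 13 differences separate the segment with the lowest difference between the groups from its copy.
Trav14-1: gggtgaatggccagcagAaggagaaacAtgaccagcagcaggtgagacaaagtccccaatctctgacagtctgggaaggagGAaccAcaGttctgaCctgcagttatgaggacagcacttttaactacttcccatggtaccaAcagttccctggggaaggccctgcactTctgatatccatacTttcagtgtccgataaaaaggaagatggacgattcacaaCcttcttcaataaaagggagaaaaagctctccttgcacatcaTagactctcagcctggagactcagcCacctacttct
Trav14d-1: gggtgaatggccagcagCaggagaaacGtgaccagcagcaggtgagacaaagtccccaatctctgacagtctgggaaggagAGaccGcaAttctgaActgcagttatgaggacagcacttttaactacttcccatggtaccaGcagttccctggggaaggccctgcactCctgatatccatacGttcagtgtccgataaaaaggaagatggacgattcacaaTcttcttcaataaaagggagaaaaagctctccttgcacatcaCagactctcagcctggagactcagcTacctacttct

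Trav13d-4 is shown beside Trav13-4-dv7, its closest relative, over the 279 coding bases of the variable exon, at chr14:53072996-53073274 and chr14:53757643-53757921, with the 5 differing bases in capitals. So few differences over a whole exon set how far 75 bp reads can be divided between them.
Trav13d-4: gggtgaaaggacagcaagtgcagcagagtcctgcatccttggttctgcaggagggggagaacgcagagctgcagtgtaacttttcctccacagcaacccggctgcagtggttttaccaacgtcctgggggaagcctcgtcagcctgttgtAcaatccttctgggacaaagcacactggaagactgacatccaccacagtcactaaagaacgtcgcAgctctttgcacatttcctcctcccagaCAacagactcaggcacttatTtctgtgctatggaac
Trav13-4-dv7: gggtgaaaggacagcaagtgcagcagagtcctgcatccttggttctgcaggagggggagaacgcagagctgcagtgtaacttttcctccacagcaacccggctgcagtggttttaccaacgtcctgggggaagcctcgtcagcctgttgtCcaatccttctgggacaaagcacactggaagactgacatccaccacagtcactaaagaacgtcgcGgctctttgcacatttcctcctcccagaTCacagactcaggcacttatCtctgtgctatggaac

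The last 45 coding bases of further named segments follow, with capitals from the last in-frame cysteine codon to the end. That stretch is the germline start of CDR3, the loop that touches the centre of the presented peptide. It is shown because many near-identical copies carry the same CDR3 start, so that this part of the receptor does not depend on which of them was used.
Trav14-1: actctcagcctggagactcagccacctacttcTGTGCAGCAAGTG
Trav14d-1: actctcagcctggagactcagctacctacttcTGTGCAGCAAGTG
Trav13d-4: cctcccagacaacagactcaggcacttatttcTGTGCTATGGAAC
Trav9-2: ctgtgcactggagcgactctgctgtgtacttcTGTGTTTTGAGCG
Trav7n-6: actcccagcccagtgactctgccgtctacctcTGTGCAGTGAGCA
Trav15-1-dv6-1: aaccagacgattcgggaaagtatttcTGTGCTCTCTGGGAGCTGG
Trav7-4: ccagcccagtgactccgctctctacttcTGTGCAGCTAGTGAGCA
Trav7d-4: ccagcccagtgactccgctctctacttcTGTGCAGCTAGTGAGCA
Trav7-2: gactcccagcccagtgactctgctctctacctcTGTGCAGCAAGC
Trav1: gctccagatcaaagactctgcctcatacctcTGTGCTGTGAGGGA
Trav11d: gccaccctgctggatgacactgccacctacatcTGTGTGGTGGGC

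Such an end could be read for 108 segments, which held 41 different capital runs. Of 64 segments within 5 edits of their closest relative, 54 had the same run as that relative and 10 had a run that differed in sequence or length, among them Trav9-2, Trav6d-3 and Trav7-2. All 9 Trav14 segments shared the run TGTGCAGCAAGTG. Of 11 Trav13 segments, 7 shared TGTGCTATGGAAC, and of 13 Trav7 segments, 8 shared TGTGCAGTGAGCA. The run of Trav7-4 was the same as that of Trav7d-4, and Trav7-2 differed from both.

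Values are in TPM, a transcript abundance scaled by length whose sum is the same fixed total in each library, recovered from the deposited log2(TPM + 1). TPM keeps no read number, so library depth is unknown and counting intervals cannot be given. Havcr2 stood at 51.13, 49.00 and 21.51 TPM in sufficient A1, B1 and dated and at 10.63, 18.30 and 4.84 TPM in deficient C1, D and dated. Its log2(TPM + 1) difference, deficient minus sufficient, was -1.83 with an adjusted p of 0.211 in limma, and the groups did not overlap. With the date mark as a block it passed (adjusted p = 0.0148). The 6 Treg markers, among them Foxp3, the lineage factor, and Cd4, were all present, and together summed to between 4323.24 and 6527.51 TPM in sufficient and between 3973.43 and 5150.22 TPM in deficient libraries. Their median difference was -0.17, the groups overlapped for all 6, and 0 of 6 passed in limma, with 0 at an unadjusted p under 0.05. Summed macrophage markers reached 937.96 TPM in sufficient B1 and 1296.17 TPM in deficient C1, against 15.69 to 128.44 TPM elsewhere. Summed Y-linked transcripts lay between 139.5 and 185.55 TPM in 5 libraries and at 0.01 TPM in deficient dated.

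Of the 128 segments, 94 were above 0 in all 6 libraries, 21 in some, and 13 were listed at 0 throughout, 11 of them pseudogenes. Tests used the 106 segments with at least 1 TPM in at least 3 libraries, and 9 others were above 0 but below that filter. Pseudogenes together held between 0.17% and 0.92% of Trav TPM in a library. Numbers of segments above 0 were 106, 103 and 108 in the sufficient and 101, 108 and 111 in the deficient libraries, so the groups overlapped in how many segments were present.

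Summed Trav TPM was lower in every deficient library than in every sufficient library. The sums were 3863.01, 3810.19 and 3490.91 TPM in sufficient A1, B1 and dated, and 2041.29, 2893.84 and 2943.72 TPM in deficient C1, D and dated. The means were 3721 ± 201 and 2626 ± 507 TPM (SD, n = 3 each), a ratio of 0.706. Deficient C1 was the lowest, and without it the ratio was 0.784. Among undated libraries the ratio was 0.643, against 0.843 in the dated pair. A sum over members was not tested.

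Trac, the constant region shared by all alpha chains, moved with the sum. It stood at 3165.81, 3136.93 and 3344.85 TPM in the sufficient and at 1551.22, 2319.63 and 2620.48 TPM in the deficient libraries. Its log2(TPM + 1) difference of -0.61 ± 0.20 (SE) did not pass in limma (adjusted p = 0.288), although the groups did not overlap. Divided by Trac of the same library, the Trav sum was 1.22, 1.21 and 1.04 in the sufficient and 1.32, 1.25 and 1.12 in the deficient libraries, and these overlapped.

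The beta chain did not show the lower values seen for the alpha chain. Trbv segments summed to 1510.87, 1479.58 and 1767.35 TPM in the sufficient and to 1669.86, 2158.62 and 2500.55 TPM in the deficient libraries, a ratio of 1.33 with overlap. The beta constant regions Trbc1 and Trbc2 together had a ratio of 1.19, also with overlap. The ratio of the Trav sum to the Trbv sum was 2.56, 2.58 and 1.98 in the sufficient and 1.22, 1.34 and 1.18 in the deficient libraries. Every deficient library lay below every sufficient library in that ratio, which was 0.526 of the sufficient mean on average.

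The CD3 chains, which carry the receptor's signal and are needed for its surface display, were read beside the segments. Cd3d, Cd3e, Cd3g and Cd247 summed to 3782.68, 3696.53 and 3898.94 TPM in the sufficient and to 2341.04, 3152.27 and 3505.53 TPM in the deficient libraries. Cd3d had a log2(TPM + 1) difference of -0.51 (adjusted p = 0.300 in limma) and Cd3e of -0.32 (adjusted p = 0.435), and in both genes the groups did not overlap. Cd3g at -0.31 and Cd247 at -0.12 overlapped. Of the receptor complex list of 5 genes only Trat1, a transmembrane adaptor of the receptor, passed in limma, and it rose by 1.42 (adjusted p = 0.0348). Deficient C1, lowest for Trav, Trac and the CD3 sum, was also the library with the most macrophage transcripts, and the part of those transcripts in the lower values was not tested. The recombination genes Rag1 and Rag2 were listed at 0 in all 6 libraries, and Dntt was at most 0.06 TPM.

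**Figure D1:**
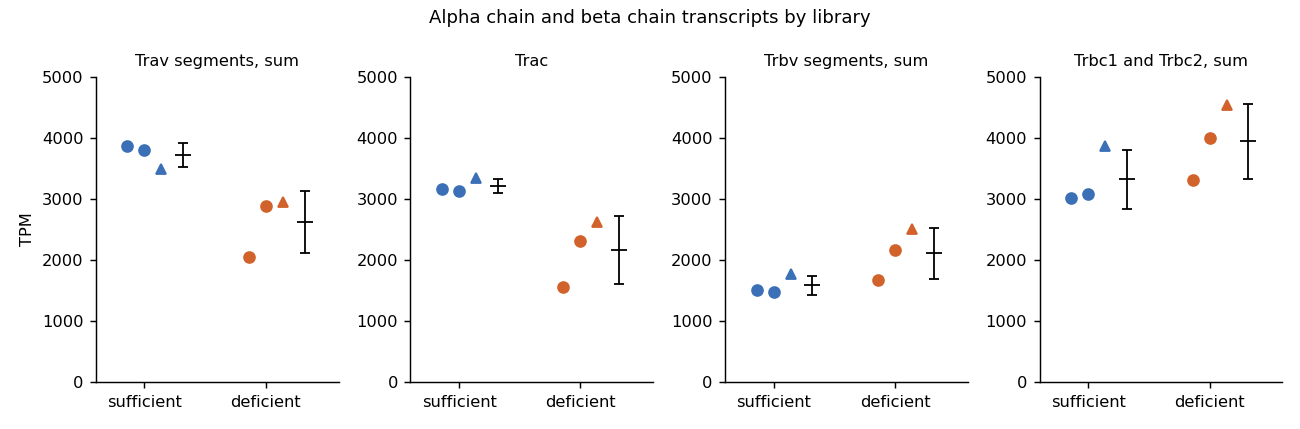
TPM of summed Trav segments, Trac, summed Trbv segments and summed Trbc1 and Trbc2 in each library. Circles are undated and triangles dated libraries, and black bars give mean and SD of 3 libraries. The 3 deficient libraries lie below the 3 sufficient libraries for Trav and Trac, and the groups overlap for both beta chain panels.

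Among single segments, Trav14-1 fell past the threshold in deficient cells, and Trav13d-4 was listed at 0 in all sufficient libraries and above 0 in all deficient ones. Limma called 2 of 106 tested segments, or 1.89% (adjusted p under 0.05 over all 12155 tested genes). Of all genes, 0.206% were called in either direction, 0.132% higher and 0.074% lower. The 2 include Trav13d-4, whose separation the filter fixed, so nothing is drawn from the higher percentage of segments. Over the 106 segments the median log2(TPM + 1) difference was -0.34, beside 0.09 over all genes, with 64 negative and 42 positive values, where 60.1% of all genes were positive. As shares of Trav TPM the median turned to 0.15 with 44 negative and 62 positive values, since 20 segments were negative in TPM and positive as a share. The median in log2(TPM + 1) was -0.025 without deficient C1 and -0.53 without deficient dated. An unadjusted limma p under 0.05 was reached by 30 segments, 19 lower and 11 higher, and by 11.7% of all genes, 4.69% lower and 6.98% higher. Groups did not overlap at 13 segments lower in deficient cells (12.3%) and 8 higher (7.55%), against 6.73% and 10.9% of all genes, and counting identical patterns as 1 left 10 lower and 8 higher. In shares of Trav TPM the balance was opposite, with 17 higher and 6 lower of the 109 segments above 0 in at least 3 libraries. The 17 include Trav13d-4, which met that condition through the deficient libraries alone and so could not overlap. The filter itself fixed 2 of the 8 higher segments, Trav13d-4 and Trav13-3, which reached 1 TPM in the 3 deficient libraries alone and so could not overlap.

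Trav14-1 (ENSMUSG00000076840.4, chromosome 14, 53554022 to 53554558) had the highest value of any single entry in sufficient A1 and the second highest in sufficient B1. The equal pair Trav3d-3 and Trav3n-3, with an identical transcript, was listed at 163.28 TPM each in A1 and 139.52 TPM each in B1. Counted as 1, that pair lay above Trav14-1 in both libraries. Trav14-1 stood at 222.99, 246.86 and 115.39 TPM in sufficient A1, B1 and dated, and at 18.83, 14.26 and 39.67 TPM in deficient C1, D and dated. All deficient values lay below the lowest sufficient value, which was that of the dated library. The log2(TPM + 1) difference was -3.01 ± 0.41 (SE, adjusted p = 0.0419 in limma). Undated libraries gave -3.76 and the dated libraries -1.52. The call was lost when any of the libraries A1, B1, C1 or D was left out, with differences between -2.71 and -2.90 and adjusted p values in limma between 0.129 and 0.200. As a share of Trav TPM, Trav14-1 fell short of the threshold at -2.50 (adjusted p = 0.0604 in limma).

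The 13 bases set out above separate Trav14-1 from the copies Trav14d-1 and Trav14n-1, which share their annotated transcript and their values. Each of these copies was listed at 131.55, 58.58 and 61.46 TPM in the sufficient and 13.32, 43.45 and 17.15 TPM in the deficient libraries. They also did not overlap between groups, with a difference of -1.81 that did not pass (adjusted p = 0.194 in limma). Summed over the 3 copies, Trav14-1 held 12.58%, 9.55% and 6.83% of Trav TPM in the sufficient and 2.23%, 3.50% and 2.51% in the deficient libraries, and the summed difference of -2.30 narrowly missed the threshold (adjusted p = 0.0552 in limma).

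Other Trav14 segments lay on both sides of 0. Trav14d-2, equal in all values to Trav14n-2, stood at 38.14, 71.31 and 82.00 TPM in the sufficient and 13.21, 23.45 and 30.22 TPM in the deficient libraries. By contrast Trav14-2, 8 edits away, stood at 44.61, 36.14 and 91.14 TPM in the sufficient and 73.81, 102.87 and 91.75 TPM in the deficient libraries. Summed by copies, the shares of Trav14-2 and Trav14-3 overlapped between the groups, with ratios of 1.01 and 1.23. Over the 9 tested Trav14 segments the median difference was -1.48, with 7 negative. The negative ones include both equal pairs, Trav14d-1 with Trav14n-1 and Trav14d-2 with Trav14n-2, and the median is the value of the latter pair.

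Trav13d-4 (ENSMUSG00000096329.2, chromosome 14, 53072763 to 53073274) was listed at 0 in all 3 sufficient libraries and at 5.06, 3.94 and 3.60 TPM in deficient C1, D and dated. No fold can be given against a group listed at 0. On the log2(TPM + 1) scale the difference was 2.37 ± 0.27 (SE, adjusted p = 0.0221 in limma), and that size depends on the added 1. Because it met the filter through the deficient group alone, the separation of its groups was fixed by that choice, and the call is given as a description. With no filter its adjusted p in limma was 0.160. Its sequence differs at 5 bases from Trav13-4-dv7, which stood at 11.26, 15.20 and 0.86 TPM in the sufficient and at 34.73, 34.47 and 16.36 TPM in the deficient libraries. Trav13-4-dv7 was higher in every deficient library too, and its difference of 1.97 did not pass (adjusted p = 0.371 in limma). Trav13d-4, Trav13-4-dv7 and Trav13n-4 summed to 22.13, 37.21 and 11.31 TPM in the sufficient and 40.29, 47.02 and 28.74 TPM in the deficient libraries. The groups of that sum overlapped, and its difference of 0.81 did not pass (adjusted p = 0.465 in limma). Trav13n-4 is no near copy, lying 20 edits from its closest relative, Trav13d-1, and it was lower in every deficient library. Trav13d-4 and Trav13-4-dv7 were each higher in every deficient library, so the sum overlapped only with Trav13n-4 in it. With any library other than deficient dated left out, Trav13d-4 had adjusted p values in limma from 0.0623 to 0.136. How reads were divided between these relatives was not tested.

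Most Trav13 segments had positive differences, 9 of 12 tested, with a median of 0.82, where 60.1% of all genes were positive. The 9 include Trav13d-4 and Trav13-3, whose sign the filter fixed, and Trav13d-2 and Trav13n-2, equal in all values. Summed over the subfamily, Trav13 TPM overlapped between the groups, and the difference of 0.45 did not pass (adjusted p = 0.423 in limma). Trav13d-3 was listed at 0, 0.36 and 3.22 TPM in the sufficient and at 4.54, 9.46 and 6.84 TPM in the deficient libraries, and Trav13-3, 1 edit away, at 0.54, 0 and 0.36 and at 1.29, 1.23 and 12.75 TPM. Neither passed (adjusted p = 0.198 and 0.390 in limma). The groups of Trav13d-3 did not overlap, and those of Trav13-3 could not, since it met the filter through the deficient libraries alone. Trav13n-4 went the other way, at 10.87, 22.01 and 10.45 TPM in the sufficient and 0.50, 8.61 and 8.78 TPM in the deficient libraries. Trav13d-3, Trav13-3 and Trav13n-4 were chosen after their values were seen.

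The other segments of smallest p did not pass. Trav7n-6 was at 2.50, 0 and 0 TPM in sufficient A1, B1 and dated and at 14.25, 12.24 and 6.65 TPM in deficient C1, D and dated, a difference of 2.93 ± 0.54 (SE, adjusted p = 0.0961 in limma). Trav9-2 was at 50.11, 43.49 and 49.36 TPM in the sufficient and 14.28, 26.83 and 20.73 TPM in the deficient libraries, a difference of -1.21 ± 0.24 (SE, adjusted p = 0.114 in limma). Trav15-1-dv6-1, a segment that can also join the delta chain, was at 0.96, 1.35 and 0.42 TPM and at 4.32, 12.91 and 4.09 TPM, a difference of 1.95 ± 0.45 (SE, adjusted p = 0.152 in limma). All 3 segments had groups without overlap and nearly the same difference in undated as in dated libraries. Those were 2.93 and 2.94, -1.21 and -1.21, and 2.003 and 1.84. Because the 3 were chosen by small p in these same libraries, neither trait is separate support. With d and n copies summed, Trav15-1-dv6-1 overlapped, and the difference was -0.15 (adjusted p = 0.968 in limma). Its sums were 43.37, 63.8 and 2.88 TPM in the sufficient and 13.01, 40.56 and 12.92 TPM in the deficient libraries. The copies added, Trav15d-1-dv6d-1 and Trav15n-1, lie 15 edits from Trav15-1-dv6-1 and held most of each sum. The sum therefore describes mainly those copies. The summed differences holding Trav7n-6 and Trav9-2 kept their sign, at 1.37 and -1.28.

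With the date mark as a block, 10 segments passed, 6 lower and 4 higher, or 9.43% beside 1.97% of all genes. Among the lower were Trav14-1, Trav9-2, Trav6d-3, Trav21-dv12 and the equal pair Trav14d-2 and Trav14n-2. Among the higher were Trav13d-4, Trav7n-6, Trav4-3 and Trav13-4-dv7. Trav13d-4 is counted here although it met the filter through the deficient libraries alone. The dated libraries also differed in summed Y-linked transcripts, at 139.5 TPM in sufficient dated and 0.01 TPM in deficient dated. The block does not account for that difference, and its part in the calls was not tested. Trav6d-3, chosen after its values were seen, was at 8.88, 13.00 and 33.79 TPM in the sufficient and at 0, 1.04 and 5.68 TPM in the deficient libraries. Without sufficient B1 and deficient C1, the libraries richest in macrophage transcripts, no segment passed in limma, 26 had an unadjusted p under 0.05, and the median difference was 0.0016.

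**Figure D2:**
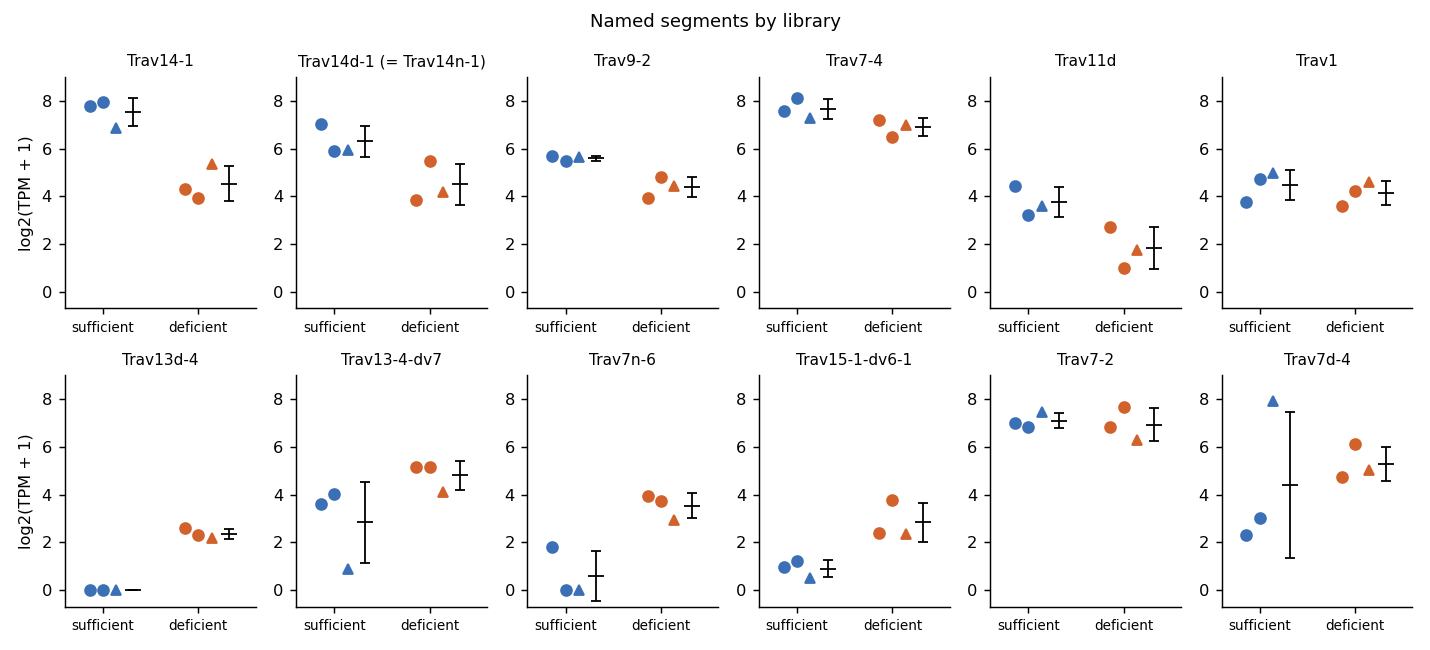
Values of 12 named segments in log2(TPM + 1), 1 point per library. Sufficient libraries are blue and deficient orange, dated ones are triangles, and black bars give mean and SD of 3 libraries. Trav14-1 and Trav13d-4 passed the limma threshold, Trav13d-4 after meeting the filter through the deficient libraries alone, and the groups overlap for Trav1, Trav7-2 and Trav7d-4.

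By single entries, with equal pairs kept apart, the leading segment differed between libraries. It was Trav14-1 in sufficient A1, Trav7-2 in deficient D, Trav7d-4 in sufficient dated and Trav7-4 in the other 3. Trav7-4, the single entry with the highest mean share over the 6 libraries, stood at 188.76, 275.51 and 156.33 TPM in the sufficient and at 147.85, 88.98 and 126.57 TPM in the deficient libraries. The groups did not overlap, and the difference of -0.76 ± 0.26 (SE) did not pass (adjusted p = 0.308 in limma). Its share of Trav TPM reached 7.23% in sufficient B1 and 7.24% in deficient C1, so the lower TPM was not a lower share in every library. Trav7-2 held up to 7.06% of Trav TPM, at 127.47, 114.97 and 173.88 TPM in the sufficient and 112.12, 204.42 and 77.76 TPM in the deficient libraries, and the groups overlapped (adjusted p = 0.878 in limma).

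Trav7d-4 differs from Trav7-4 by 1 edit over the last exon and varied widely among the sufficient libraries. It stood at 3.91 and 7.25 TPM in sufficient A1 and B1 and at 240.00 TPM in sufficient dated, where it was the most abundant segment. In deficient C1, D and dated it stood at 25.93, 67.95 and 31.64 TPM. The difference of 0.88 ± 1.29 (SE) did not pass (adjusted p = 0.834 in limma), with 2.76 in undated libraries against -2.88 in the dated ones. Summed with the other copies, the shares were 6.20%, 9.72% and 11.6% in the sufficient and 8.87%, 8.14% and 7.11% in the deficient libraries, which overlapped.

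A further copy was present mainly in 1 library. Trav12d-3 was at 44.51 TPM in deficient dated, at 0.33 TPM in sufficient dated and listed at 0 elsewhere. Trav12n-3, identical to it over the last exon, was at 112.38 TPM in deficient dated and between 43.59 and 62.16 TPM in the other 5 libraries. Trav12d-3, chosen after its values were seen, did not reach the filter and was not tested. Over the 6 libraries the log2(TPM + 1) values most like those of Trav7-4 were those of Trav3-3, Trav8d-1 and Trav14-1, with Pearson's r of 0.92, 0.86 and 0.86. These describe 6 libraries of shared group and scaling, with no test.

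Segments used by semi-invariant T cells were read separately. Invariant natural killer T cells of the mouse use Trav11 and mucosal-associated invariant T cells use Trav1, each with a fixed joining segment. Trav11 and Trav11n were listed at 0 in all libraries, while Trav11d, 1 edit from Trav11 over the last exon, was at 20.67, 8.37 and 11.08 TPM in the sufficient and at 5.66, 1.02 and 2.38 TPM in the deficient libraries. The groups did not overlap, and the difference of -1.92 ± 0.49 (SE) did not pass (adjusted p = 0.194 in limma). The first 290 bases of the variable exon are identical in Trav11 and Trav11d.

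Trav1 stood at 12.53, 25.44 and 30.31 TPM in the sufficient and at 11.24, 17.71 and 23.31 TPM in the deficient libraries, with overlap and a difference of -0.34 ± 0.38 (SE, adjusted p = 0.769 in limma). The joining segments Traj18 and Traj33, which those lineages use, were listed at 0, as was every Traj entry, so the values do not show which joining segment either was joined to. Zbtb16, the factor that defines both lineages, was at most 0.03 TPM.

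By subfamily, Trav14 and Trav5 held smaller shares and Trav13, Trav4 and Trav2 larger shares of Trav TPM in every deficient library than in every sufficient library. Trav14 held 19.6%, 17.6% and 19.5% in the sufficient and 12.8%, 14.1% and 12.1% in the deficient libraries, and Trav13 held 4.30%, 3.98% and 3.20% and then 10.03%, 7.36% and 5.58%. These 5 were 3 higher and 2 lower of 20 subfamilies present in at least 3 libraries. Over all tested genes, groups did not overlap in log2(TPM + 1) at 17.6%. In TPM, Trav14, Trav5 and Trav2 also did not overlap, while Trav13 and Trav4 did, with ratios of 1.35 and 0.98. The larger share of Trav4 was therefore no higher TPM. For single segments, shares did not overlap at 21.1% of Trav segments, 23 of 109, and at 34.8% of Trbv segments, 8 of 23. The Trav count includes Trav13d-4, which was above 0 in the deficient libraries alone and could not overlap. When segments were summed by subfamily before the fit, none passed in limma (9 had an unadjusted p under 0.05), and Trav14 came nearest at -1.06 (adjusted p = 0.0774).

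Trav5 held 3.55%, 3.91% and 4.57% in the sufficient and 1.89%, 2.86% and 3.24% in the deficient libraries, and Trav4 held 4.32%, 4.26% and 5.52% and then 6.31%, 5.94% and 7.15%. Within Trav5, Trav5-4 was at 80.03, 103.22 and 99.36 TPM in the sufficient and 18.21, 45.55 and 48.41 TPM in the deficient libraries, and its difference of -1.42 did not pass (adjusted p = 0.184 in limma). Trav2, a subfamily of a single segment, was at 5.13, 9.70 and 0.58 TPM in the sufficient and 13.40, 98.11 and 23.32 TPM in the deficient libraries. Deficient D held most of the Trav2 signal, and the difference of 2.80 did not pass (adjusted p = 0.258 in limma). Trav5-4 and Trav2 were chosen after their values were seen.

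Shares of the larger subfamilies Trav7, Trav6, Trav12 and Trav3 overlapped between the groups. Trav7 held 17.0%, 18.2% and 24.2% in the sufficient and 24.2%, 21.1% and 20.6% in the deficient libraries. Trav3 held 12.9% and 12.2% in sufficient A1 and B1 but 3.95% in sufficient dated, below the 5.54% to 6.91% of the deficient libraries. Trav12 held 14.1% in deficient dated and 7.60% to 9.50% in the other 5 libraries.

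**Figure D3:**
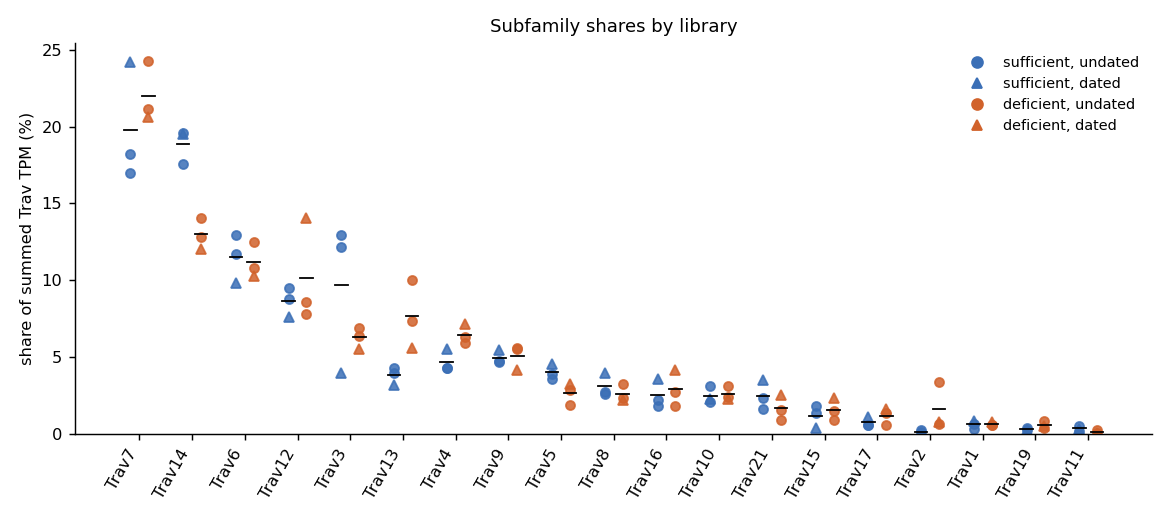
Share of summed Trav TPM (%) held by each subfamily with a mean share of at least 0.1%, 1 point per library, with the sufficient libraries on the left and the deficient on the right of each pair and the group mean as a line. Trav14 lies at 17.6% to 19.6% in sufficient and 12.1% to 14.1% in deficient libraries, while Trav7 overlaps.

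Trav transcripts were spread more evenly over segments in deficient libraries. The effective number of segments, the exponential of the Shannon entropy of the shares and hence the number of equally abundant segments with the same evenness, was 57.4, 54.9 and 55.9 in the sufficient and 59.6, 64.4 and 72.8 in the deficient libraries. The means were 56.1 ± 1.27 and 65.6 ± 6.66 (SD, n = 3 each), with no overlap. With d and n copies summed, the effective numbers were 25.7, 25.6 and 26.5 in the sufficient and 29.3, 30.2 and 32.9 in the deficient libraries, again without overlap. By subfamily they were 11.2, 11.2 and 10.8 and then 11.2, 12.1 and 12.2, which overlapped. These scores were not tested.

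The 10 most abundant segments, with equal pairs kept apart, held 39.2%, 39.8% and 40.3% of Trav TPM in the sufficient and 36.2%, 32.9% and 30.1% in the deficient libraries. The largest share of a single entry overlapped, at 5.77%, 7.23% and 6.88% and then 7.24%, 7.06% and 4.30%. With copies summed the largest share was 12.6%, 11.6% and 11.6% in the sufficient and 8.87%, 8.24% and 7.95% in the deficient libraries. The leading segment with copies summed was Trav14-1 in sufficient A1, Trav3-3 in sufficient B1 and Trav7-4 in sufficient dated, so the larger top shares of the sufficient libraries did not come from 1 segment.

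**Figure D4:**
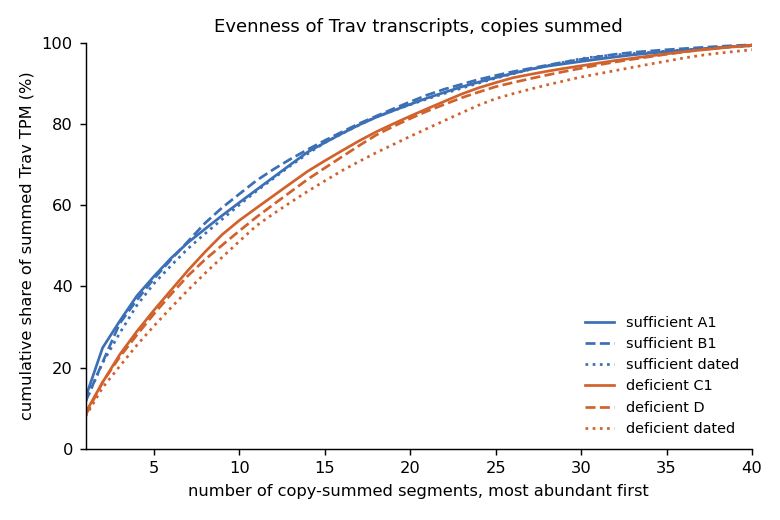
Cumulative share of summed Trav TPM (%) against the number of segments with d and n copies summed, ordered from the most abundant in each library, with sufficient libraries in blue and deficient in orange. At the first segment the sufficient libraries lie at 11.6% to 12.6% and the deficient libraries at 7.95% to 8.87%, and deficient dated stays lowest.

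Libraries resembled each other by share more in some pairs than in others. The share of Trav TPM common to both libraries of a pair was 83.5% for sufficient A1 with B1, and 76.6%, 70.6% and 72.1% for the pairs of deficient libraries. Sufficient dated shared 64.7% with A1 and 64.3% with B1, inside the range of 62.5% to 67.9% for pairs from opposite groups. Segment use in sufficient dated was thus as far from the other sufficient libraries as from the deficient ones.

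Position along the locus was compared because early rearrangements use segments near Trac and later rounds can reach farther ones. The 64 segments nearest Trac held 63.5%, 70.5% and 66.3% of Trav TPM in the sufficient and 73.0%, 64.2% and 69.7% in the deficient libraries, with overlap. Median differences were -0.23 over the 53 tested segments nearest Trac (31 negative) and -0.34 over the 53 farthest (33 negative). In the third of 4 equal blocks of 32 segments counted from the far end, the share was 36.8%, 39.2% and 34.5% in the sufficient and 46.3%, 40.5% and 40.1% in the deficient libraries, while the other 3 blocks overlapped. Shares by copy letter overlapped as well, at 54.3 ± 3.42% and 56.1 ± 2.28% for segments with no letter, 25.2 ± 3.51% and 21.9 ± 0.67% for d, and 20.5 ± 2.76% and 22.0 ± 1.62% for n (SD, n = 3 each, sufficient and then deficient).

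**Figure D5:**
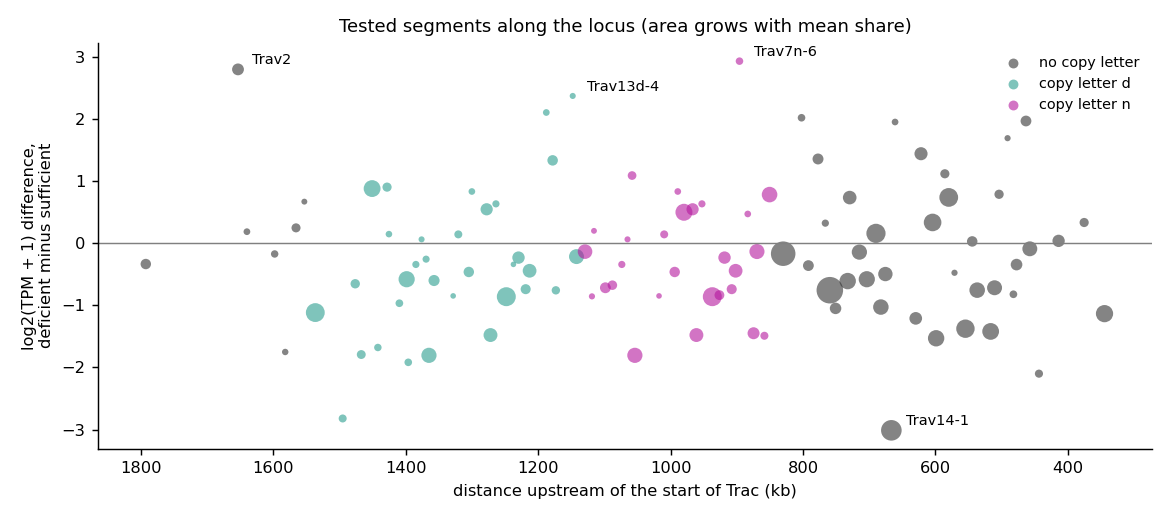
Log2(TPM + 1) difference, deficient minus sufficient, of the 106 tested segments against their distance upstream of the start of Trac (kb), coloured by copy letter and with area growing with the mean share. Positive and negative differences lie along the whole locus, and Trav14-1 is lowest at -3.01.

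Trbv segments gave a comparison from the other chain of the same libraries. Of 22 tested, 19 had positive differences, the median was 0.57 and limma called 0 of them, while 7 had an unadjusted p under 0.05, all higher. Groups did not overlap at 6 Trbv segments, all higher in deficient cells. The Trav median of -0.34 and the Trbv median thus had opposite signs, and no test of their difference was made.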

How the data were processed

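The authors deposited 1 table of log2(TPM + 1) for 6 libraries of sorted Treg cells. The submitters' processing notes name STAR, RSEM and limma, with no versions, and the builds GRCm38 and mm10, and per the labels' protocols Nextera XT libraries were read as 75 bp pairs. Each value was returned to TPM as 2 to the value minus 1, and libraries then summed to 999999 to 1000000. How reads crossing the join of a Trav to a Traj segment were counted is not given in the sources used here, nor is strand. RSEM divides reads that fit several copies, so values of near-identical segments depend on that division.

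All 55450 identifiers matched GENCODE mouse release 21 on GRCm38, the source of positions and sequences, and edit distances came from edlib 1.3.9.post1. Genes with a log2 value of at least 1 in at least 3 libraries (12155) entered limma 3.58.1 in R 4.3.3 (lmFit, then eBayes with a trend, no covariate, two-sided), with Benjamini-Hochberg adjustment over all of them and a threshold of 0.05. The fit was tested on simulated data. Differences are in log2(TPM + 1), deficient minus sufficient, which understates changes of low values. Shares are percentages of summed Trav TPM in a library. With 3 libraries against 3 no exact permutation p can fall below 0.10, and sums and scores over members were not tested.

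Named segments were those with at least 5% of Trav TPM in a library, those past the threshold, the 5 of smallest p, and Trav11, Trav11d, Trav11n and Trav1. Others were chosen later, which is said beside their values, or are given as relatives of a named segment or through a count. The members and lists were chosen with earlier results of these data known. Columns show the group and no replicate number. Alternatives covered the filter, normalization, pseudocount, variance model, date block, summing of copies and leaving out libraries. Those without sufficient B1 and deficient C1, as shares of Trav TPM, and relative to the CD3 chains or Trbv were chosen after seeing the data. Python 3.11.15, pandas 2.3.3 and numpy 2.4.6 were used.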

Additional observations from a re-analysis of the deposited data

How the results depend on the processing

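No paired analysis was possible because the columns carry no replicate number. Of 106 tested segments 2 were called in limma, and the count stayed 2 with the looser filter, quantile normalization and a pseudocount of 0.1. It was 0 with no filter (20 at an unadjusted p under 0.05), 1 without a variance trend, 10 with the date block, 0 without sufficient B1 and deficient C1 (26), 1 as shares of Trav TPM, 0 with copies summed (14) and 0 with subfamilies summed (9). Leaving out 1 library gave 0 to 6, with 0 for A1, B1, C1 and D. Over all genes the 25 calls became 1, 4 and 240 with no filter, no trend and the date block, 0 without sufficient B1 and deficient C1 (748 at an unadjusted p under 0.05), and 0 to 121 with 1 library left out. Quantile normalization called 36 genes, 15 higher and 21 lower, against 16 and 9, and moved the median of all genes from 0.09 to -0.0086. The causes were not tested.

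The ratio of summed Trav TPM, 0.706, was 1.06 relative to Trac, 0.892 relative to the CD3 chains and 0.526 relative to Trbv, and 0.663 to 0.784 with 1 library left out. The ratio of effective numbers, 1.17, was 1.07 by subfamily and 1.11 to 1.22 with 1 library left out. The ratio of largest shares, 0.936, was 0.6996 with copies summed and 0.857 to 1.08 with 1 library left out, and that of the 64 segments nearest Trac, 1.03, was 1.003 to 1.07. Among the 10 segments named by rule, differences that changed sign were those of Trav1 (0.051 without sufficient B1 and deficient C1, 0.15 as a share), Trav7-2 (-0.54 to 0.15 with 1 library left out, 0.0031 without sufficient dated, 0.15 without deficient dated, 0.35 as a share) and Trav7d-4 (-0.18 without sufficient A1 to 2.63 without sufficient dated). Over all 106 tested segments, 20 turned from negative to positive as shares and 0 the other way. Over 14 alternatives Trav14-1 lay between -3.42 and -2.50 with adjusted p of 0.0108 to 0.408 in limma, and Trav13d-4 between 2.25 and 5.41 with 0.0135 to 0.333.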

Other observations

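Transcripts of the gamma and delta chains were low beside those of the alpha chain. Trdv segments, which lie in and beside the alpha locus, summed to 19.51, 35.05 and 52.87 TPM in sufficient A1, B1 and dated and to 9.50, 34.93 and 19.07 TPM in deficient C1, D and dated. Trdc, the delta constant region, was at most 1.32 TPM. Trgv segments were listed at 0 in all sufficient libraries and summed to 3.83, 0.94 and 1.33 TPM in deficient C1, D and dated. Summed gamma delta markers lay between 0.24 and 5.37 TPM in the sufficient and between 7.90 and 10.95 TPM in the deficient libraries. Of the 2 tested, 0 passed in limma. The members differed, since Tcrg-C1 and Tcrg-C2 were higher in deficient libraries without overlap, while Tcrg-C4 and Trdc overlapped. Tcrg-C1 was at 0.28, 0.17 and 1.10 TPM in the sufficient and 7.32, 3.44 and 5.33 TPM in the deficient libraries. Sox13 and Blk were at most 0.01 and 0.26 TPM. The 10 Trav segments whose names also carry a delta number (dv) held 7.85% to 10.3% of Trav TPM in a library, and the groups overlapped.

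Cd8a was at most 11.55 TPM and Cd8b1 lay between 9.74 and 30.98 TPM, with both groups overlapping. B cell markers summed to 338.49 to 613.65 TPM in the sufficient and 582.12 to 792.56 TPM in the deficient libraries, with Ms4a1 listed at 0.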
